A study of Mus musculus with 6 samples.

Results

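The genes described here encode the machinery of mitosis and chromosome segregation, with the kinesin motors other than Cenpe left out. They were taken as a list of 42 gene symbols, grouped by function with no threshold on measured values. The list was chosen with earlier results of these data known. All 42 were found among the 25308 genes that had a count in these data. RNA-seq of C2C12 cells, an established mouse myoblast line, was done on 6 libraries, with 2 libraries for each of 3 cell states. Transcript counts were added up per gene, and the 3 states were compared for every member.

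The myoblasts (Day 0) were kept in growth medium with fetal bovine serum and harvested close to confluence. The myotubes and the reserve cells (both Day 7) came from cultures differentiated in medium with horse serum. Myotubes are fused, multinucleated muscle cells. Reserve cells are the mononucleated cells of the same cultures that did not fuse, and both were separated by a mild trypsin treatment. The labels name no transgene, deletion or drug for any library, and all came from a single cell line. The labels call the paired libraries biological replicates, and the methods of the study give a shorter time in differentiation medium than the series does. Both Day 7 states were set against the same myoblast libraries, so those comparisons share their controls.

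Entry into mitosis is driven by CDK1 bound to cyclin B, which Cdc25 phosphatases switch on. Chromosomes are then compacted by condensin, captured through kinetochores, and kept together until the spindle checkpoint lets the anaphase-promoting complex act through Cdc20. Most of these genes are transcribed in G2 and M phase, and a myotube nucleus has left the cell cycle for good, whereas reserve cells are known as quiescent cells that can divide again.

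Many promoters of mitotic genes hold a cell cycle genes homology region (CHR), read as TTTGAA or TTCGAA, near the transcription start, with CCAAT boxes upstream of it. Such letters were searched in RefSeq promoter windows (GRCm38.p6, 250 bases before to 50 after the start). Both strands were read, so that TTTGAA also covers TTCAAA and CCAAT also covers ATTGG, and no pair of these motifs overlapped in the stretches shown. The 5 stretches that follow end at the base before the RefSeq start, with the motifs in capitals. They are shown because Cdc20 had the largest decrease in myotubes, Top2a and Ncapg stand for chromosome compaction, Ckap5 was among the members that changed least, and Birc5 encodes survivin.
Cdc20, chr4:118437344-118437463, minus strand: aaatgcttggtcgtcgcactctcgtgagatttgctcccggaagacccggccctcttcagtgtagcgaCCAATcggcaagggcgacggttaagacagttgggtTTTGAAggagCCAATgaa
Top2a, chr11:99024190-99024309, minus strand: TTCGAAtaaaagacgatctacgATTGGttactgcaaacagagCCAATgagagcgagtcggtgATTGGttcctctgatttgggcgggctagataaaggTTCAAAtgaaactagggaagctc
Ncapg, chr5:45669805-45669924, plus strand: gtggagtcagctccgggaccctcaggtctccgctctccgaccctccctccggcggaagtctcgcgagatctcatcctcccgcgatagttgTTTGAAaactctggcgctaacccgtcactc
Ckap5, chr2:91526642-91526761, plus strand: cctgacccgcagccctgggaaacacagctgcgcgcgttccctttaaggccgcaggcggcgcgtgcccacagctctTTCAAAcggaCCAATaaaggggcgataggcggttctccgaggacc
Birc5, chr11:117849117-117849236, plus strand: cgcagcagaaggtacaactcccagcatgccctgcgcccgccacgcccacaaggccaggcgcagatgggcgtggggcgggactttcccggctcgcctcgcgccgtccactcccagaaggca

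The Cdc20 stretch held TTTGAA with its leftmost base at position -18 from the start, and CCAAT at -53 and -8. In Top2a the same letters, read on the other strand, began at -23, with CCAAT boxes at -98, -78 and -58 and TTCGAA at -120. Ncapg had TTTGAA at -30. Ckap5 had it on the other strand at -45, with CCAAT downstream of it at -35 and, running past the start, at -2. No such letters were found in the Birc5 window.

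Promoter windows were matched for 35 of the 42 members. The members that were not matched were Spc24, Cdc25c, Ccna2, Incenp, Smc4, Aurkb and Tpx2. TTTGAA or TTCGAA lay between 100 bases before and 50 after the start in 25 of the 35 (71.4%), against 9.87% of all 27025 genes with a window. CCAAT was found in 27 members (77.1%), against 41.1% of all genes. Both together were found in 23 members (65.7%), against 3.93% of all genes and 17.9% of 78 other mitosis genes. For this count CCAAT could lie anywhere in the window, upstream or downstream of TTTGAA or TTCGAA. A match of letters describes the sequence and does not show that a factor binds there.

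The libraries held 15658875 to 20055078 estimated counts, and 19318 to 20493 genes had a count in a library. Levels are given as CPM, the share of a library's counts scaled by TMM, a normalisation that assumes most genes do not change. Of 15467 genes tested, 10096 differed between myotubes and myoblasts, 5052 of them lower. With library totals in place of TMM, 6461 of 10191 calls were lower, and the median of all genes moved from 0.00 to -0.27 on the log2 scale. Between myotubes and reserve cells 4398 of 8598 calls were lower, and 5670 of 8602 with library totals. The summed level of 12 differentiated muscle genes was 318 to 333 CPM in myoblasts, 38768 to 39643 in myotubes and 9739 to 9786 in reserve cells. Markers of satellite and reserve cells summed to 786 and 796 CPM in myoblasts and 888 and 886 in reserve cells. In myotubes they summed to 438 to 443 CPM, which was 49.7% of their level in reserve cells, and Calcr among them had no count. Of the 9 tested, 4 were higher and 2 lower in reserve cells than in myoblasts, against 24.3% and 21.8% of all genes. Markers of fibroblasts summed to 3469 and 3462 CPM in myoblasts and 4553 and 4429 in reserve cells, and in myotubes to 19.2% of their level in reserve cells. The 6 leukocyte markers summed to 2.28 to 3.92 CPM. Ptprc and Adgre1 among them had no count in any library, and Itgam had 0 counts in myoblasts, 3 and 5 in reserve cells and 12 and 16 in myotubes. The 4 endothelial markers summed to at most 1.21 CPM.

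The mitosis genes were abundant in myoblasts, lower in reserve cells and lowest in myotubes. Their summed level was 5913 ± 83.4 CPM (SD, n = 2) in myoblasts, 2338 ± 20.7 in reserve cells and 835 ± 55.4 in myotubes. Reserve cells thus held 39.5% of the myoblast level and myotubes 14.1%. The sums include Ube2c-201, a transcript described below that shares exon bases with the muscle gene Tnnc2. It made up 89.0 and 164 CPM in myotubes and 69.5 and 19.7 in reserve cells. By the median log2 fold change, members kept 38.8% in reserve cells and 8.54% in myotubes. In 41 of the 42 members the lower myoblast library lay above the higher reserve cell library, and the lower reserve cell library above the higher myotube library. This order with no overlap was seen in 18.9% of all genes with enough counts. All members passed the filter on low counts, and the fewest counts of a member in any library were 11. In bulk RNA, fewer cycling cells and less mitotic RNA per cell cannot be told apart. The methods of the study describe little contamination of the myotubes by reserve cells. Carry-over between the Day 7 states, in either direction, was not measured here, and its part in these levels was not tested.

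**Figure D1:**
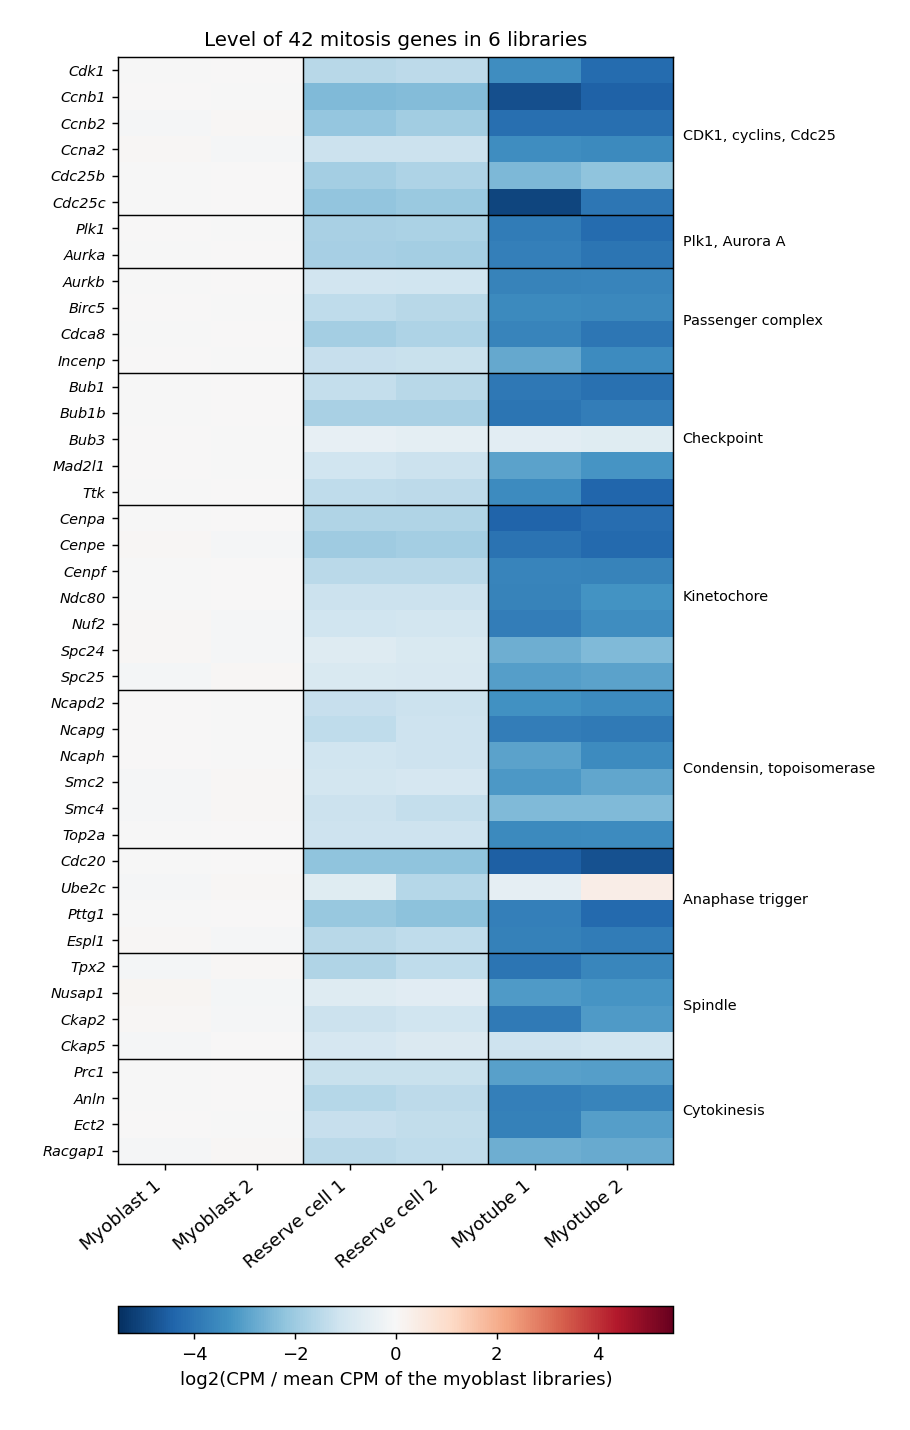
Level of each of the 42 mitosis genes (rows, grouped by role) in the 6 libraries (columns), as the log2 ratio of its CPM to the mean of the 2 myoblast libraries. Reserve cell columns are pale blue and myotube columns dark blue in nearly every row, with Bub3, Ckap5 and Ube2c as the palest rows in myotubes.

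Between myotubes and myoblasts 41 of the 42 members fell (edgeR, adjusted p under 0.05), whereas 32.7% of all genes tested were called lower. A called decrease that was estimated at 2-fold or more was found in 40 members, against 18.7% of all genes. The median log2 fold change of the members was -3.55, and 28 members had less than 10% of their myoblast level left. Between reserve cells and myoblasts all 42 fell, against 21.8% of all genes, and 36 of them by an estimate of at least 2-fold, against 6.34%. The median there was -1.37. Tested with glmTreat against a 2-fold change, 26 of the 42 were lower there, against 472 of all 15467 genes. On the most abundant transcript of each gene 32 were called lower there, against 1691 of 15261 genes. Ube2c lost its call in reserve cells under several settings given with its values. Between myotubes and reserve cells 40 members were lower in myotubes, against 28.4% of all genes, and 38 by at least 2-fold, against 14.0%, with a median of -2.17. Ube2c was the 1 member called higher in myotubes there, against 27.2% of all genes, and Bub3 was not called. The list was chosen with earlier results of these data known, so these counts and medians describe it, and the comparisons share libraries.

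**Figure D2:**
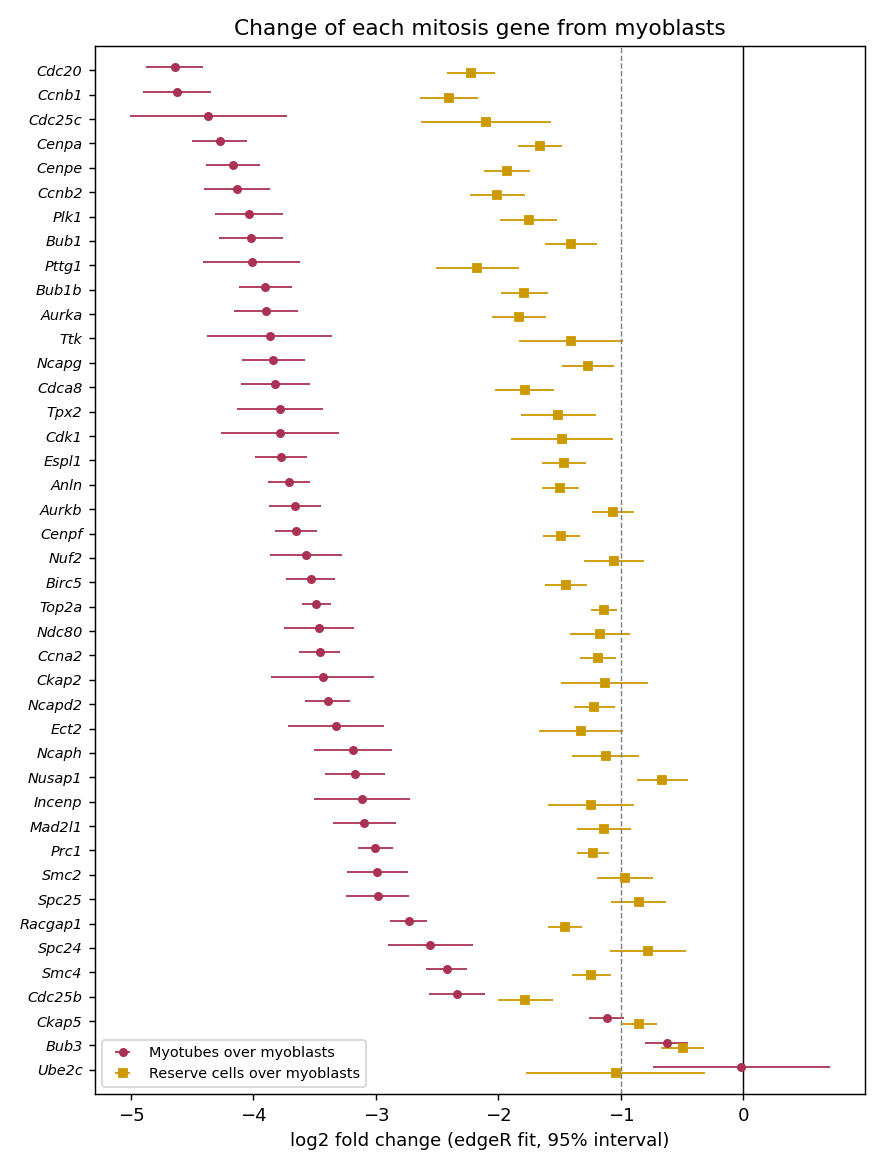
Fitted log2 fold change (x axis) with its 95% interval for each of the 42 mitosis genes, in myotubes over myoblasts (circles) and reserve cells over myoblasts (squares), ordered by the former. Changes (dashed line, 2-fold lower) run from -4.64 (Cdc20) to -0.02 (Ube2c) in myotubes and from -2.40 (Ccnb1) to -0.49 (Bub3) in reserve cells.

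The 6 genes of mitotic entry fell in both Day 7 states. Ccnb1 encodes cyclin B1, the partner of CDK1, and was measured at 164 and 160 CPM in myoblasts, 29.8 and 31.4 in reserve cells, and 5.62 and 7.39 in myotubes. The 3 states were far apart and replicates lay close together. Its log2 fold change was -4.63 ± 0.121 (SE, adjusted p = 9.0e-09) in myotubes and -2.40 ± 0.102 (adjusted p = 4.4e-07) in reserve cells, the largest decrease of any member in reserve cells. Ccna2, the gene of cyclin A2, which acts from S phase into early mitosis, was at 230 and 215 CPM in myoblasts, 98.0 and 97.6 in reserve cells, and 20.98 and 19.6 in myotubes. It thus kept 43.9% of its myoblast level in reserve cells, where Ccnb1 kept 18.9%. The kinase gene Cdk1 itself fell to 7.27% in myotubes and 35.8% in reserve cells, and Ccnb2, of the second B-type cyclin, to 5.68% and 24.9%.

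The Cdc25 phosphatase genes, whose products remove the inhibitory phosphates of CDK1, did not change by the same amount. Cdc25b was at 176 and 182 CPM in myoblasts, 49.4 and 54.9 in reserve cells, and 32.4 and 38.5 in myotubes. Both Day 7 states were well below myoblasts and lay near each other. Its log2 fold change was -2.34 ± 0.0997 in myotubes and -1.78 ± 0.0964 in reserve cells, and between myotubes and reserve cells the change was -0.56 ± 0.0982 (adjusted p = 0.0015). Cdc25c was at 25.5 and 25.6 CPM in myoblasts and 0.782 and 1.63 in myotubes, with the fewest counts of all members, and its change in myotubes was -4.37 ± 0.277.

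The kinase genes Plk1 and Aurka, whose products drive centrosome maturation and spindle formation, fell side by side. Plk1 was at 128 and 121 CPM in myoblasts, 36.4 and 37.7 in reserve cells, and 8.68 and 6.63 in myotubes, with no overlap between states. Its log2 fold change was -4.04 ± 0.119 in myotubes and -1.75 ± 0.101 in reserve cells. Aurka was at 66.5 and 66.8 CPM in myoblasts, 19.01 and 18.5 in reserve cells, and 4.91 and 4.07 in myotubes. The corresponding changes of Aurka were -3.90 ± 0.114 and -1.83 ± 0.0958, close to those of Plk1.

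The chromosomal passenger complex, in which Aurora B corrects faulty attachments of kinetochores to microtubules, fell in all 4 subunits. Survivin, encoded by Birc5, was followed as a protein in the study. Birc5 was at 84.4 and 84.0 CPM in myoblasts, 32.0 and 29.5 in reserve cells, and 7.40 and 7.15 in myotubes. Myotubes thus held 8.64% of the myoblast level (log2 fold change -3.53 ± 0.0875, adjusted p = 6.8e-09) and reserve cells 36.6% (-1.45 ± 0.0746, adjusted p = 1.4e-06). Cdca8 encodes borealin, the subunit that binds survivin, and was at 77.7 and 77.8 CPM in myoblasts, 21.2 and 23.8 in reserve cells, and 6.19 and 4.89 in myotubes. Incenp, the scaffold that activates Aurora B, was at 117 and 115 CPM, 47.8 and 50.5, and 16.6 and 10.5, in the same order of states. The myotube libraries of Incenp lay further apart than those of Birc5, and its change of -3.11 ± 0.171 was the smallest of the complex. Aurkb kept 47.8% of its myoblast level in reserve cells and 7.92% in myotubes.

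Of the 5 spindle checkpoint genes, 4 fell steeply and Bub3 fell little. Bub1, a kinase that recruits the checkpoint to kinetochores, was at 90.3 and 95.1 CPM in myoblasts, 37.6 and 32.2 in reserve cells, and 6.04 and 5.41 in myotubes. In myotubes it changed by -4.02 ± 0.112 on the log2 scale. Bub3, the WD-repeat protein that carries Bub1 and BubR1 to the kinetochore, was at 88.8 and 88.7 CPM in myoblasts, 65.5 and 60.5 in reserve cells, and 59.7 and 55.2 in myotubes. All Day 7 libraries of Bub3 were below both myoblast libraries, and the myotube libraries were just below the reserve cell libraries. It changed by -0.63 ± 0.077 (adjusted p = 0.00012) and -0.49 ± 0.0763 (adjusted p = 0.00095), keeping 64.7% and 71.0% of its myoblast level. The difference in Bub3 between myotubes and reserve cells did not pass the test (-0.13 ± 0.0773, adjusted p = 0.18), but with library totals the same difference was -0.34 (adjusted p = 0.0064). Bub1b (BubR1), Ttk (the kinase MPS1) and Mad2l1 (MAD2) kept 6.69%, 6.85% and 11.7% in myotubes.

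All 7 genes of the centromere and outer kinetochore fell in every comparison. Cenpa, the histone H3 variant that marks the centromere, was at 90.9 and 93.4 CPM in myoblasts, 29.0 and 29.2 in reserve cells, and 4.34 and 5.12 in myotubes. The change of Cenpa was -4.27 ± 0.0974 in myotubes and -1.66 ± 0.0787 in reserve cells. Cenpf, a large protein of the outer kinetochore, was at 195 and 204 CPM in myoblasts, 71.8 and 70.5 in reserve cells, and 16.1 and 15.7 in myotubes. Spc24 had the smallest decrease of the group and was at 31.4 and 28.2 CPM in myoblasts, 18.0 and 16.7 in reserve cells, and 4.62 and 5.47 in myotubes. Its change was -2.55 ± 0.15 in myotubes and -0.78 ± 0.135 in reserve cells, so that 58.3% of the myoblast level was kept in the latter. Cenpe, a kinesin motor that the list retains as a kinetochore protein, lost more, with 26.3% kept in reserve cells and 5.57% in myotubes.

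The subunits of the NDC80 complex, which holds microtubule ends at the kinetochore, can be set side by side per transcript length. As TPM, a level corrected for annotated transcript length and not scaled by TMM, Ndc80 averaged 65.9 ± 2.42 (SD, n = 2) in myoblasts, Nuf2 82.3 ± 5.92, Spc24 54.3 ± 3.56 and Spc25 89.8 ± 7.08. In reserve cells the levels were 28.7 ± 0.263, 40.2 ± 3.93, 30.9 ± 1.18 and 48.6 ± 0.656 TPM. In myotubes all 4 subunits were between 3.88 and 8.89 TPM. The NDC80 arms that grip the microtubule (Ndc80, Nuf2) had log2 fold changes of -3.46 ± 0.126 and -3.57 ± 0.128 in myotubes. Those of the arms that anchor the complex to the centromere (Spc24, Spc25) were -2.55 ± 0.15 and -2.99 ± 0.111. The difference between these pairs of subunits was not tested.

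**Figure D3:**
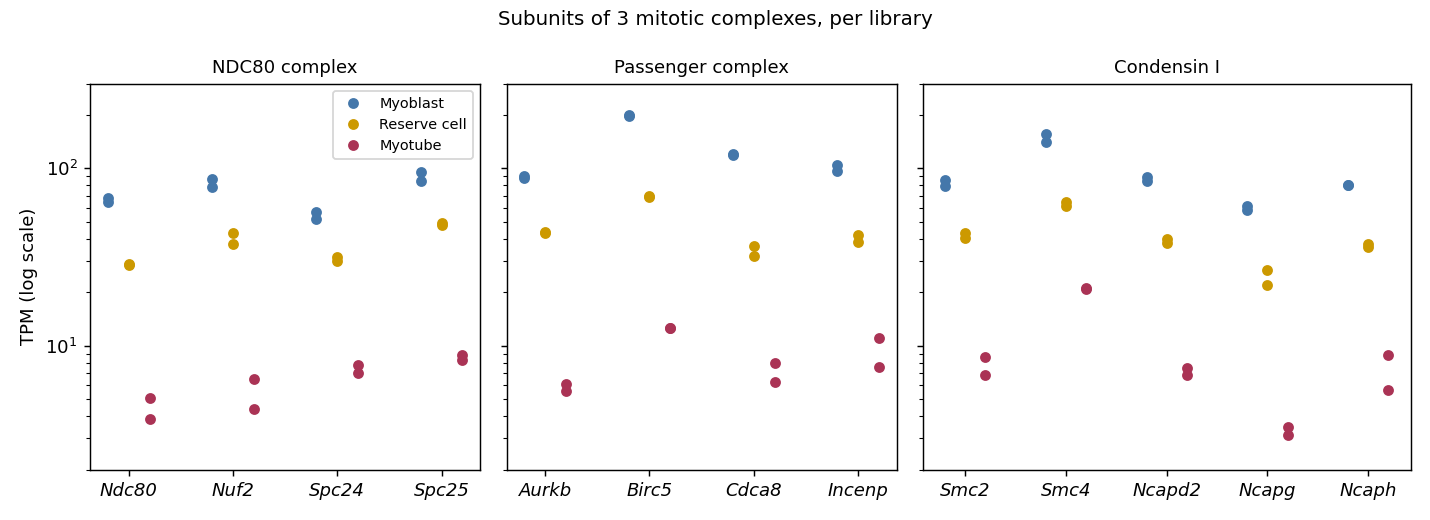
TPM (log axis) of the subunits of the NDC80 complex, the chromosomal passenger complex and condensin I in each library, with a point for each of 2 libraries per state. In all 13 genes the myoblast points are highest, the reserve cell points lie below them and the myotube points are lowest, with Smc4 the highest subunit in myotubes at about 21 TPM.

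Genes of chromosome compaction fell in all 6 cases, Smc4 by the least. Top2a, encoding the topoisomerase that untangles sister chromatids, was at 557 and 586 CPM in myoblasts, 257 and 263 in reserve cells, and 49.9 and 52.2 in myotubes. Top2a changed by -3.48 ± 0.052 (adjusted p = 4.1e-10), in myotubes, with the smallest adjusted p of all members, and kept 45.5% of its level in reserve cells. Ncapg, a HEAT-repeat subunit of condensin I, was at 88.5 and 86.6 CPM in myoblasts, 33.2 and 39.6 in reserve cells, and 6.26 and 5.99 in myotubes. Smc4, an ATPase shared by both condensins, was at 235 and 258 CPM in myoblasts, 108 and 99.8 in reserve cells, and 45.7 and 46.3 in myotubes. Smc4 thus changed by -2.42 ± 0.0725 in myotubes, where its partner Smc2 changed by -2.99 ± 0.109 and the condensin I subunits Ncapd2, Ncapg and Ncaph by -3.39, -3.84 and -3.19. In reserve cells the 6 genes lay close together, between -1.27 (Ncapg) and -0.97 (Smc2).

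Of the genes that trigger anaphase, 3 fell steeply. Cdc20, the activator of the anaphase-promoting complex, was at 160 and 163 CPM in myoblasts, 34.7 and 34.4 in reserve cells, and 7.11 and 5.87 in myotubes. With 4.01% of the myoblast level left (log2 fold change -4.64 ± 0.101, adjusted p = 3.5e-09), it had the largest decrease of any member in myotubes. Pttg1 encodes securin, which holds separase inactive, and kept 6.20% in myotubes and 22.2% in reserve cells. Espl1, the separase gene, kept 7.29% and 36.3%.

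The remaining gene of this group, Ube2c, encodes the ubiquitin-conjugating enzyme of the anaphase-promoting complex and went against the other members. Its gene sum was 126 and 136 CPM in myoblasts, 83.0 and 43.9 in reserve cells, and 91.6 and 167 in myotubes. The myotube libraries lay on either side of both myoblast libraries, and the replicates of each Day 7 state were far apart. Its log2 fold change was -0.02 ± 0.313 (adjusted p = 0.97) between myotubes and myoblasts, with a 95% interval from 60.0% to 163% of the myoblast level, -1.04 ± 0.318 (adjusted p = 0.027) in reserve cells, and 1.03 ± 0.319 (adjusted p = 0.025) between myotubes and reserve cells. The call in reserve cells was lost with DESeq2 (-1.06, adjusted p = 0.076), without myoblast replicate 1 (-1.10, adjusted p = 0.069) or 2 (-0.99, adjusted p = 0.10), and without reserve cell replicate 2 (-0.66, adjusted p = 0.14). The call between myotubes and reserve cells was lost with DESeq2 (1.06, adjusted p = 0.063) and library totals (0.82, adjusted p = 0.057). Leaving out myotube replicate 2 (0.52, adjusted p = 0.20) or reserve cell replicate 2 (0.63, adjusted p = 0.13) also ended it.

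Ube2c (chromosome 2, 164769898 to 164778822, plus strand, GRCm38) overlaps Tnnc2, the gene of fast skeletal muscle troponin C on the opposite strand. The transcript Ube2c-201 shares 592 of its 2191 exonic bases (27.0%) with exons of Tnnc2, and Ube2c-202 (967 bases) shares 0. Ube2c-201 had 86 and 116 counts in myoblasts, 1379 and 381 in reserve cells, and 1251 and 2812 in myotubes. Tnnc2 had 222 and 230 counts in myoblasts, 13883 and 12627 in reserve cells, and 58698 and 64522 in myotubes. Both were thus low in myoblasts and high in the Day 7 states. Ube2c-202, in contrast, had 2071 and 2827 counts in myoblasts, 266 and 466 in reserve cells, and 37 and 51 in myotubes.

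Counted on Ube2c-202 alone, a choice made after the values were seen, Ube2c changed by -5.48 ± 0.279 (adjusted p = 4.6e-07) in myotubes and -2.74 ± 0.218 (adjusted p = 1.9e-05) in reserve cells. Between myotubes and reserve cells the change was then -2.73 ± 0.294 (adjusted p = 8.1e-05), and the members called lower were 42, 42 and 41 in the 3 comparisons. Neither the kit nor the strand setting of the counting is stated in the labels or the methods. Without strand, reads of Ube2c and Tnnc2 cannot be told apart where they share exons, and the part of Tnnc2 in the Ube2c sum was not tested.

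**Figure D4:**
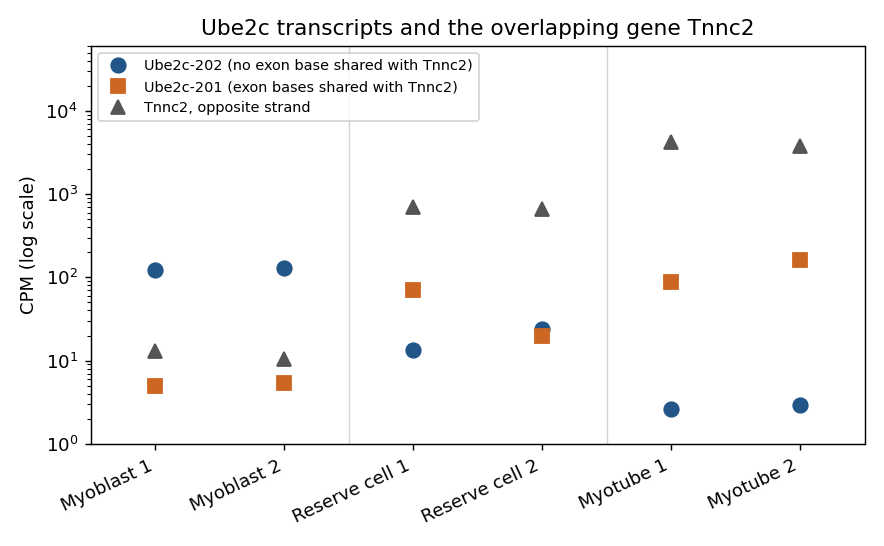
CPM (log axis) of the transcripts Ube2c-201 and Ube2c-202 and of the opposite-strand gene Tnnc2 in each of the 6 libraries. Ube2c-202 descends from 121 and 130 CPM in myoblasts to 2.63 and 2.97 in myotubes, while Ube2c-201 and Tnnc2 are lowest in myoblasts.

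Genes of spindle assembly covered a wide range. Tpx2, which activates Aurora A and nucleates microtubules, was at 208 and 235 CPM in myoblasts, 70.3 and 85.4 in reserve cells, and 13.7 and 18.3 in myotubes (log2 fold change -3.78 ± 0.152). Ckap5, the microtubule polymerase chTOG that also acts outside mitosis, was at 287 and 305 CPM in myoblasts, 156 and 172 in reserve cells, and 134 and 139 in myotubes. Its libraries did not overlap between states, but the Day 7 states lay near each other. It changed by -1.11 ± 0.0621 in myotubes and -0.85 ± 0.0614 in reserve cells, and between myotubes and reserve cells the change was -0.27 ± 0.0618 (adjusted p = 0.0065), a call that was lost on the most abundant transcript of Ckap5 (-0.28, adjusted p = 0.37). Nusap1, a microtubule-bundling protein, kept 63.3% of its level in reserve cells, the most after Bub3, yet only 11.1% in myotubes. Ckap2, which stabilises spindle microtubules, kept 45.6% and 9.26%.

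The 4 cytokinesis genes fell in each comparison. Anln encodes anillin, a scaffold of the contractile ring, and was at 355 and 368 CPM in myoblasts, 123 and 134 in reserve cells, and 26.3 and 28.9 in myotubes (log2 fold change -3.71 ± 0.0735). Racgap1, which binds the central spindle and activates the RhoA exchange factor Ect2, was at 280 and 298 CPM in myoblasts, 102 and 109 in reserve cells, and 44.3 and 42.7 in myotubes. The changes of Racgap1 and Anln in reserve cells were -1.45 ± 0.0608 and -1.49 ± 0.0651. In myotubes Racgap1 changed by -2.73 ± 0.0649, the least of the 4 genes. Prc1, which bundles the antiparallel microtubules of the midzone, and Ect2 kept 12.5% and 9.98% in myotubes.

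The difference between myotubes and reserve cells was of similar size for most members. From the lower to the upper quartile the log2 fold change between them ran from -2.30 to -1.97, and the 95% interval excluded the members' median in 16 members. For comparison, intervals excluded the median in 27 members between myotubes and myoblasts and in 24 between reserve cells and myoblasts. Apart from Ube2c, the members nearest to 0 were Bub3 (-0.13), Ckap5 (-0.27), Cdc25b (-0.56), Smc4 (-1.18) and Racgap1 (-1.28). At the other end were Cenpa (-2.61 ± 0.099) and Bub1 (-2.61 ± 0.113), with 16.4% of the reserve cell level in myotubes in both cases. Markers of muscle were 4.02 times as high in myotubes as in reserve cells, and their part in these differences was not tested.

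Replicates of the mitosis genes lay closest in myoblasts, where the median difference between the 2 libraries was 0.0584 on the log2 scale, and were further apart in myotubes (0.235), where 22 members were under 10 CPM in both libraries. In 29 members the same transcript had the most counts in all 6 libraries. Among the others, the transcript of Nusap1 that led in reserve cells (56.1% and 56.6% of the gene's counts) was not the leading transcript in myoblasts, where it held 46.0% and 46.1%. The leading transcript of Ect2 also differed between reserve cells and the other states, but its lead over the next transcript was narrow in places. It led by 41 to 40 counts in myotube replicate 1, and with 32.8% against 31.5% of the counts in reserve cell replicate 2. Such shares are estimates that StringTie made where transcripts share exons, and they were not tested. Exons of Prc1, Ncapg, Ccna2, Cdc25b, Cdc25c, Cdc20, Plk1, Cdca8 and Nusap1 also overlap genes of the opposite strand, with which reads may be shared.

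The other genes of mitosis were given by a list of 95 genes in 7 groups. Between myotubes and myoblasts 77 of them fell and 11 rose, against 32.7% and 32.6% of all genes. The list's median log2 fold change was -1.38, against -3.55 for the 42 members. Between reserve cells and myoblasts 63 fell and 3 rose (list median -0.71), against 21.8% and 24.3% of all genes. Between myotubes and reserve cells 66 were lower and 10 higher (list median -0.64), against 28.4% and 27.2% of all genes. With library totals 78, 68 and 76 were lower and 4, 2 and 4 higher in these comparisons. Of all 15467 genes, 6461, 3957 and 5670 were lower with library totals. For 12 mitotic kinesins the medians were -3.64, -1.46 and -2.15 in the same order, close to those of the members. For 33 genes of DNA replication, which act in S phase, they were -2.16, -0.79 and -1.58.

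**Figure D5:**
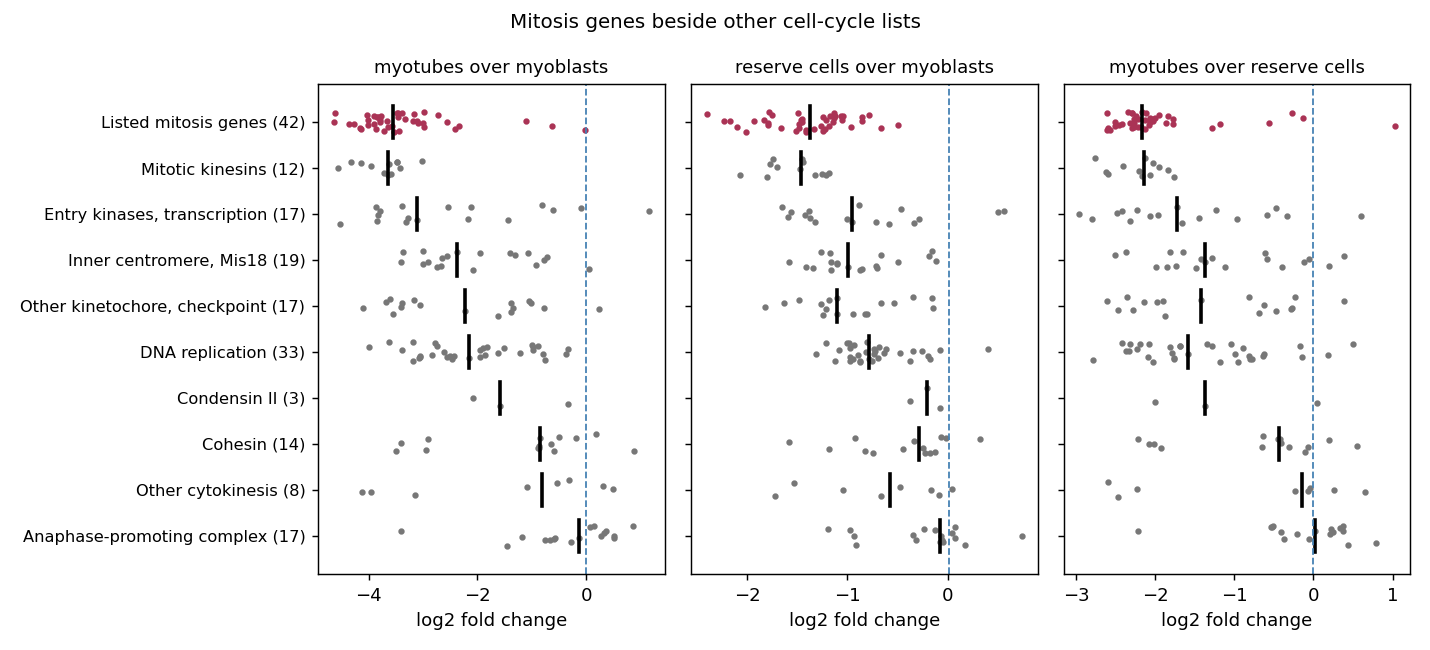
Log2 fold change of every gene (points) and the median (black bar) in the 42 mitosis genes and in 9 other lists, for the 3 comparisons, with the median of all genes tested as a dashed line. In myotubes over myoblasts the medians run from -3.64 (mitotic kinesins) and -3.55 (mitosis genes) to -0.13 (anaphase-promoting complex).

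Within those lists, the transcription factor gene Foxm1 and the kinase gene Melk of the entry group changed by -3.86 and -4.53 in myotubes. In that group 15 of the 17 genes fell, where 32.7% of all genes tested fell between myotubes and myoblasts. Inner centromere genes fell in 17 of 19 cases, with Cenph, which encodes a centromere protein, at -3.37. Of the other 17 kinetochore and checkpoint genes 16 fell, Ska3 (-4.10) and Knl1 (-3.68) the most. Among 14 cohesin genes 12 fell, with the centromere protectors Sgo2a (-3.50) and Sgo1 (-3.40) at a distance from the list's median of -0.86. Cep55 (-4.12) and Diaph3 (-3.95) of the abscission and cytokinesis list fell like members.

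Of 17 genes of the anaphase-promoting complex, which Cdc20 and Ube2c serve, and its regulators, 8 fell and 6 rose between myotubes and myoblasts, with a median of -0.13. Over all genes tested 32.7% fell and 32.6% rose, so the share of this list that rose was near the background. The inhibitor gene Fbxo5 (-3.41) and the subunit gene Cdc23 (-1.46) fell the most. Those that rose were Anapc7 (0.87), Anapc10 (0.37), Anapc16 (0.51), Cdc16 (0.26), Cdc26 (0.51) and Cdc27 (0.14). With library totals only Anapc7 of these was still called higher (0.59), and Cdc16 and Cdc27 turned to -0.01 and -0.13. Fzr1, whose product Cdh1 activates the complex in G1 and in resting cells, was at 107 and 99.6 CPM in myoblasts, 56.7 and 52.7 in reserve cells, and 65.4 and 64.6 in myotubes. It changed by -0.67 in myotubes and -0.91 in reserve cells, far less than Cdc20.

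Of the 3 genes of condensin II, which stays in the nucleus throughout the cell cycle, all fell in myotubes and 1 fell in reserve cells. Over all genes tested, 32.7% fell in myotubes and 21.8% in reserve cells. Ncapg2 was at 88.6 and 92.8 CPM in myoblasts and 85.9 and 85.8 in reserve cells, and its change there was -0.08 ± 0.0898 (adjusted p = 0.51). Ncapd3 changed by -0.21 ± 0.124 (adjusted p = 0.19). In myotubes these genes changed by -2.09 and -1.59. The other gene, Ncaph2, was the one that fell in reserve cells, with a change of -0.37 (adjusted p = 0.00025), and its change in myotubes was -0.33 (adjusted p = 0.00025). The condensin I genes Ncapg and Ncapd2 had changed by -1.27 and -1.22 in reserve cells, and the difference between the complexes was not tested.

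Other genes that rose in myotubes relative to myoblasts were Lin37 (1.16), a subunit of the MuvB complex that binds CHR elements, the cohesin acetyltransferase gene Esco1 (0.87), the cohesin release factor gene Wapl (0.17), and Vps4a (0.49) and Chmp4b (0.30) of the abscission machinery. Lin37 was at 9.16 and 8.44 CPM in myoblasts, 13.9 and 12.1 in reserve cells, and 21.1 and 18.1 in myotubes, the reverse of the members' order. With library totals Lin37 (0.88), Esco1 (0.60) and Vps4a (0.21) were still called higher, Chmp4b was not (0.02), and Wapl turned to -0.11. In reserve cells Lin37 (0.56), Esco1 (0.32) and Anapc10 (0.74) rose, and the call of Esco1 was lost with library totals (0.25, adjusted p = 0.056). Against reserve cells, Mad2l1bp (0.39) and Fzr1 (0.25) were also higher in myotubes, but neither was called with library totals (0.18 and 0.04).

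Changes were also set beside the letters in the promoters. In 23 members TTTGAA or TTCGAA lay near the start and CCAAT lay anywhere in the window. Their median log2 fold changes were -3.78 in myotubes and -1.45 in reserve cells. In the 12 members without both they were -3.50 and -1.19. Between myotubes and reserve cells the order was reversed, with medians of -2.13 with both and -2.22 without. Ranges in myotubes over myoblasts overlapped (-4.64 to -0.02 with both, -4.63 to -3.09 without), and no difference was tested. Of the members that changed least, Bub3 (in 1 of its 2 windows), Ckap5 and, by its gene sum, Ube2c held both motifs. On Ube2c-202 alone Ube2c changed by -5.48 in myotubes. Birc5, which fell to 8.64%, held neither motif.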

How the data were processed

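RNA from C2C12 myoblasts, myotubes and reserve cells (2 libraries each, labelled as biological replicates) was sequenced. The authors aligned paired reads to mm10 with HISAT2, filtered them with SAMtools and deposited estimated counts per transcript from StringTie, written as whole numbers. Program versions and the annotation release were not given in the sources used here. The deposited table of the whole series was not used.

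Counts were summed to genes through GENCODE release M21 (141374 of 142604 transcripts matched, and 0.375% to 0.872% of counts unmatched). Members and lists were chosen with earlier results of these data known. Low genes were removed with filterByExpr (minimum count 10), and the quasi-likelihood test of edgeR 4.0.16 (R 4.3.3, TMM factors) was fitted to all 6 libraries, with Benjamini-Hochberg adjustment over 15467 genes and a threshold of 0.05. CPM were TMM-scaled. TPM used annotated transcript lengths. No list was tested as a set. P-values measure the spread between these 2 libraries per state, with a biological coefficient of variation of 12.9%. The pipeline was tested on simulated data.

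Values of each library are given for the member of each role with the highest mean CPM, the largest and the smallest decrease in myotubes, for members not called lower, and for Birc5. Of the other lists, genes called higher and the 2 with the largest decrease in each were eligible, but not every eligible gene is reported here. Of the 18 alternatives, 17 were chosen at the outset, and Ube2c counted on Ube2c-202 was added after seeing the data. They were DESeq2 1.42.0, RLE factors, library totals, 2 other filters, separate fits, the replicate block, limma-trend (limma 3.58.1), glmTreat, the most abundant transcript of each gene, no mitochondrial genes and each library left out.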

Additional observations from a re-analysis of the deposited data

Results flagged for a closer look

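Ube2c was singled out as a member called higher in myotubes than in reserve cells, by 1.03 on the log2 scale (edgeR, adjusted p = 0.025). The gene sum changed by -0.02 in myotubes and -1.04 in reserve cells. Counted on Ube2c-202 alone the difference was -2.73, and the summed counts of the opposite-strand gene Tnnc2 were 58698 and 64522 in myotubes against 13883 and 12627 in reserve cells.

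Cdc27, a subunit gene of the anaphase-promoting complex, was singled out because it rose by 0.14 in myotubes (adjusted p = 0.04) and fell by 0.23 in reserve cells (adjusted p = 0.0069), a difference of 0.38 (adjusted p = 0.00039). Its levels were 127 and 130 CPM in myoblasts, 109 and 109 in reserve cells, and 143 and 141 in myotubes. With library totals the change in myotubes was -0.13 and was not called, and the difference between the Day 7 states was 0.17 (adjusted p = 0.024).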

How the results depend on the processing

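Of 2142 fold changes of single members under 17 alternatives (glmTreat, run for counts alone, is given apart), 2113 kept their direction and their side of the threshold, 24 lost the call, 2 gained it and 3 changed sign. Outside the setting that took the most abundant transcript of each gene, 11 of these differed, and 1 of them was not of Ube2c (Bub3, given in the report). On the most abundant transcript, 16 calls were lost, that of Ckap5 between myotubes and reserve cells among them, and Ube2c turned to 4.60 in myotubes and 3.11 in reserve cells over myoblasts. Counted on Ube2c-202, it turned to -2.73 between myotubes and reserve cells. Its other lost calls are given in the report. With library totals the members' medians moved to -3.83, -1.44 and -2.38 in myotubes over myoblasts, reserve cells over myoblasts and myotubes over reserve cells, where the median of all genes moved to -0.27, -0.06 and -0.21. Tested with glmTreat against 2-fold, 26 members were lower in reserve cells (16 fewer) and 2 fewer in each of the other comparisons. The other mitosis genes called lower were then 50, 16 and 35, against 2102, 472 and 1304 of all 15467 genes. On the most abundant transcript, 41 of the other genes were lower in reserve cells, against 1691 of all 15261 genes tested there.

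With each library left out in turn, the members' medians ranged from -3.65 to -3.54, -1.39 to -1.34 and -2.23 to -2.15, and the members called lower from 41 to 41, 41 to 42 and 40 to 40. The other mitosis genes called lower ranged from 74 to 77, 51 to 65 and 58 to 64. Counts of 11 to 28 for the scarcest member limit the precision in myotubes.

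Replicate numbers in the labels were shared between states, but deviations of same-numbered libraries were not correlated across genes (r = 0.00, 0.04 and -0.03). With 2 libraries per state this cannot show whether same-numbered libraries shared a culture or a preparation. With the replicate number as a block, the members called lower were 41, 42 and 40, their medians -3.55, -1.37 and -2.17, and the other mitosis genes called lower 77, 62 and 64, and no call of a member changed.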
